A study of Mus musculus with 6 samples.

Results

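The 10 genes described here, Padi4, S100a8, S100a9, Ngp, Camp, Ltf, Lcn2, Mmp8, Mmp9 and Cybb, encode proteins that neutrophils make late in their maturation, or that act in the release of neutrophil extracellular traps (NETs). They were selected by name, as the rows of the deposited count table whose Ensembl identifier carries one of these symbols in the GENCODE M21 mouse annotation, and all 10 were found among the 35932 genes of the table. Total RNA was sequenced from 6 libraries of mouse bone marrow cells labelled as myeloid leukemic blasts of genotype MLL-AF9+, in which a fusion of the genes Kmt2a and Mllt3 drives an acute myeloid leukemia. The 3 chemotherapy-resistant libraries carry the treatment label Cytarabin+Doxorubicin, a nucleoside analog given with an anthracycline, and the 3 chemotherapy-sensitive libraries carry the label vehicule. Resistance and drug exposure coincide in all 6 libraries and cannot be told apart. The labels give no strain, age, dose or time of harvest, and do not say whether libraries of a group came from separate animals, so p-values reflect how far these libraries spread, which may be technical variation only.

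Neutrophils fill their granules in a fixed order as they mature. The azurophil proteases and myeloperoxidase are made first, at the promyelocyte stage; lactoferrin, lipocalin and the cathelicidins of the specific granules follow at the myelocyte stage; gelatinase comes later still. The cytosolic S100 proteins and the phagocyte oxidase accumulate along the same path. A NET is decondensed chromatin thrown out of the cell with granule proteins on it, and the deiminase encoded by Padi4 loosens that chromatin by converting arginines of histones to citrulline. The C/EBP factors and PU.1 are the transcription factors best known for driving these genes.

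The libraries held 22206341 to 31856009 counts, which puts 3 counts at 0.0945 to 0.137 CPM; CPM, the unit of all levels unless a length is named, is the count relative to the library total with TMM factors applied. Blast markers were abundant in every library, with the summed level of 9 markers at 2580 to 2660 CPM in resistant and 2480 to 2550 CPM in sensitive libraries. The 6 natural killer cell markers summed to at most 0.728 CPM in any library. Of the 8 T cell markers, Cd3e, Cd3g and Trac had at most 1 count in any library, while Lck had up to 69 and Cd8a up to 90 counts. Red cell transcripts differed between the groups, with the 4 globin genes at 0.126 to 1.32 CPM in resistant and 42.2 to 73.2 CPM in sensitive libraries.

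All 10 genes were lower in resistant blasts, and in each of them every resistant library lay below every sensitive one. Tested by quasi-likelihood in edgeR, with p-values adjusted by Benjamini-Hochberg over 13414 genes and a threshold of 0.05, 9 of the 9 members that were over the low-count filter in every library passed as lower, whereas 20.8% of all tested genes passed as lower and 39.2% in either direction. Of these 9, 8 fell by more than 2-fold, which 4.74% of all tested genes did, and the separation of the groups in this direction was seen in 27.2% of all tested genes. Mmp8 is left out of these counts, since it entered the test through the sensitive libraries alone and so had to differ. The median log2 fold change was -1.89 over the 9 genes and -0.005 over all tested genes. The sizes were unequal: Padi4 fell 29.2-fold, and the other 8 had log2 fold changes of -2.67 to -0.89. In bulk RNA, fewer cells that express a gene and less of its RNA per cell cannot be told apart. The red cell transcripts fell in the same resistant libraries, and their part in these results was not tested.

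**Figure D1:**
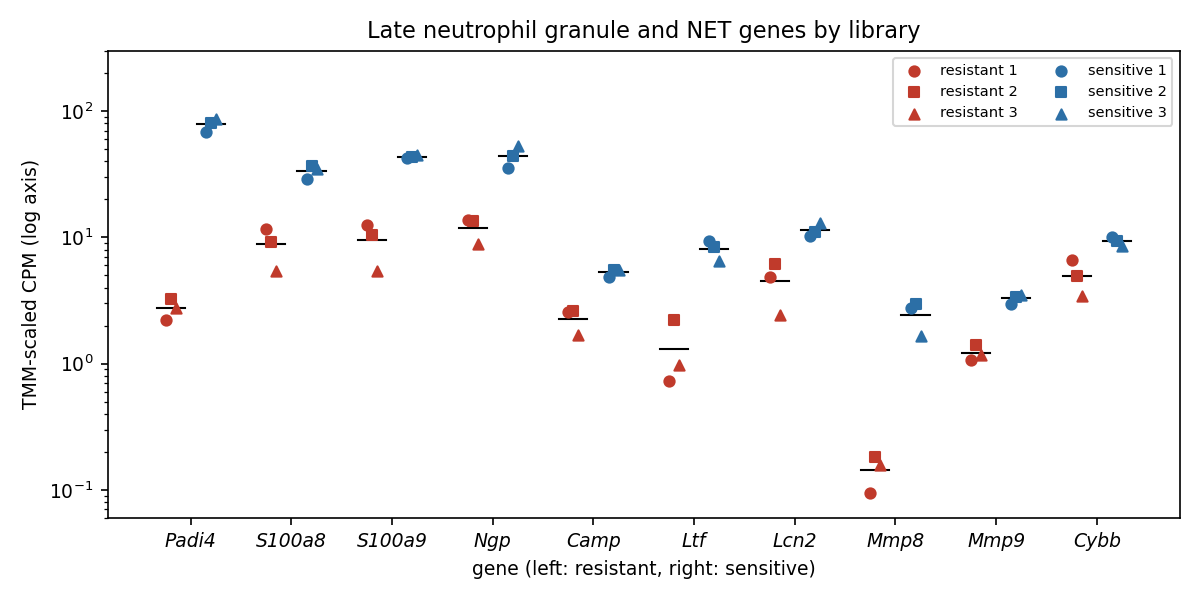
Level of each gene in each library, in TMM-scaled CPM on a log axis, with resistant libraries at the left and sensitive libraries at the right of each gene; symbols mark the library and lines the mean of 3. The groups do not overlap in any of the 10 genes, and the gap is widest for Padi4, at 2.21 to 3.23 CPM in resistant and 68.8 to 87.0 CPM in sensitive libraries.

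Padi4 encodes the peptidylarginine deiminase that citrullinates histones during NET formation. It was at 2.21, 3.23 and 2.77 CPM in resistant libraries 1 to 3, and at 68.8, 80.1 and 87.0 CPM in sensitive libraries 1 to 3. The highest resistant library thus lay far below the lowest sensitive one, and the 3 resistant libraries had 70, 71 and 71 counts, well above the counting floor. The log2 fold change was -4.87 ± 0.14 (SE; edgeR adjusted p = 1.02e-08), the smallest adjusted p of the 10 genes. Its paralogs moved less. Padi2, a deiminase also found in macrophages and glia, fell to 17.8 ± 1.57 CPM in resistant blasts, against 48.7 ± 9.66 CPM in sensitive blasts (SD, n = 3 each; log2 fold change -1.46 ± 0.13 SE, edgeR adjusted p = 1.74e-05). Padi1 and Padi3 did not pass (log2 fold changes of 0.79 ± 0.51 and -0.26 ± 0.16), and Padi6 had at most 1 count in any library; these were named after their values were seen. The count of Padi4 over that of Padi2 was 0.138 to 0.170 in resistant and 1.15 to 2.04 in sensitive libraries. An exact test on such a ratio, with 3 against 3 libraries, cannot give a p below 0.1, so ratios are given as descriptions.

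The region just before the start of Padi4 and of 4 other members is shown here to describe where known binding letters of C/EBP factors and PU.1 lie. The part of these factors in the fall of the genes was not tested. Sequences are from RefSeq on GRCm38.p6, a later build than the authors' mm9, and give the 250 bases before the annotated start on the strand of the gene: chr4:140774204-140774453 (minus) for Padi4, chr3:90668821-90669070 (plus) for S100a8, chr3:90695722-90695971 (minus) for S100a9, chr9:110419558-110419807 (plus) for Ngp and chr9:111019042-111019291 (plus) for Ltf. Capitals mark TTNNGCAA on either strand (bound by C/EBP factors), GAGGAA on either strand (the core bound by PU.1) and TATAAA on the gene's strand within 50 bases of the start.
Padi4: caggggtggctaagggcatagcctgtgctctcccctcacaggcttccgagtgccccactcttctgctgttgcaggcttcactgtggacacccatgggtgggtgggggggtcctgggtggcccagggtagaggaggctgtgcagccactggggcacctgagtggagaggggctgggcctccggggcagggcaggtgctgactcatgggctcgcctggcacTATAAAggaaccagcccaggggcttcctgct
S100a8: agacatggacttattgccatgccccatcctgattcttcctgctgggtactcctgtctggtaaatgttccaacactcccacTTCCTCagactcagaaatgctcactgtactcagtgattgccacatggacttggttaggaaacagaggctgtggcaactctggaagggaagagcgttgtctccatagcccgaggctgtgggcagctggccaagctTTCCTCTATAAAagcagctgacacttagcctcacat
S100a9: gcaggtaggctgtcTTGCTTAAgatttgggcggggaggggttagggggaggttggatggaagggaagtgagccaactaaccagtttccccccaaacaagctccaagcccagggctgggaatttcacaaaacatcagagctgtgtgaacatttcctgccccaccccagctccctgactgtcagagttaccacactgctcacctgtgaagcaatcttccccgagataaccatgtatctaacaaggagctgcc
Ngp: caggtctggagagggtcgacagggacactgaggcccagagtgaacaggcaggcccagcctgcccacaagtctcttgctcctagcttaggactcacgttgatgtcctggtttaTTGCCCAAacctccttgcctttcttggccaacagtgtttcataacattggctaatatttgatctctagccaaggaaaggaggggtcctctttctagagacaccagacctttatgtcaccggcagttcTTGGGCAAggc
Ltf: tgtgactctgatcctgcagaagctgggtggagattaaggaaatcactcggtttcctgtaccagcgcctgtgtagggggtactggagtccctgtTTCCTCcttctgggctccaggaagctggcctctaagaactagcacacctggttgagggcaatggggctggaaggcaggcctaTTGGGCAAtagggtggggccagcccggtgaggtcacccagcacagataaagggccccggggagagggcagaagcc

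RefSeq held this window for 9 of the 10 genes. TTNNGCAA was found in 5 of them, S100a9, Ltf, Ngp, Lcn2 and Mmp8, and in 9.56% of all 32851 promoter windows of this length. GAGGAA was found in 4, S100a8, Ltf, Lcn2 and Mmp8, and in 23.3% of all windows. TATAAA near the start was found in Padi4 and S100a8, 31 and 30 bases before the start, and in 2.63% of all windows. In S100a8 it directly follows a GAGGAA match on the other strand without sharing a base with it, and Ngp holds TTNNGCAA at 138 and at 11 bases before its start. Padi4, with the largest fall, holds only the TATAAA match, and Camp and Cybb hold none of the 3 motifs in this window. A match describes letters and not occupancy, which was not measured here.

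S100a8 and S100a9 lie next to each other on chromosome 3 and encode the partners of calprotectin, the calcium-binding heterodimer that makes up much of the neutrophil cytosol and also decorates NETs. S100a8 was at 11.7, 9.19 and 5.42 CPM in resistant libraries 1 to 3, and at 28.9, 36.8 and 34.8 CPM in sensitive libraries 1 to 3. S100a9 was at 12.5, 10.4 and 5.38 CPM in the resistant and at 42.3, 43.0 and 44.6 CPM in the sensitive libraries. In both genes resistant library 3 was the lowest and resistant library 1 the highest. The log2 fold changes were -1.92 ± 0.21 for S100a8 (SE; edgeR adjusted p = 6.75e-05) and -2.19 ± 0.21 for S100a9 (edgeR adjusted p = 3.01e-05). The count of S100a8 over that of S100a9, not corrected for length, was 0.882 to 1.01 in resistant and 0.683 to 0.856 in sensitive libraries.

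The rest of the S100 family did not fall with this pair. Of 14 other listed genes, all S100 genes but S100pbp, 6 had enough counts to be tested; 3 rose, only S100pbp fell and 2 did not pass, with a median log2 fold change of 0.27. The annexin partners S100a10 (0.56 ± 0.09) and S100a11 (0.30 ± 0.07) and the calcium sensor S100a1 (0.32 ± 0.07) rose, and S100pbp, which encodes a binding partner of a human S100 protein, fell by 0.42 ± 0.12. S100a3, S100a5, S100a7a and S100a16 had 0 counts in every library. S100pbp lost its call in 4 of 14 alternatives, when resistant library 2 or 3 or sensitive library 1 or 3 was left out (edgeR adjusted p up to 0.0758). Of the receptors through which the secreted proteins act on cells, 2 of 5 tested were higher and 3 did not pass. Slc22a17, a receptor of lipocalin 2, rose by 0.57 ± 0.09, to 39.6 ± 2.43 CPM in resistant against 26.6 ± 2.91 CPM in sensitive blasts. Tlr4, which binds calprotectin, rose by 0.38 ± 0.12 (edgeR adjusted p = 0.0266), and lost its call when resistant library 1 or 3 or sensitive library 1 or 3 was left out (adjusted p up to 0.0872 over 14 alternatives).

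The specific granule genes Ngp, Camp, Ltf and Lcn2 all fell, by unequal amounts. Ngp, the neutrophilic granule protein, is a relative of the cathelicidins and was the most abundant of the 4 per kilobase. It was at 13.6, 13.4 and 8.78 CPM in resistant libraries 1 to 3, and at 35.2, 44.4 and 52.9 CPM in sensitive libraries 1 to 3 (log2 fold change -1.89 ± 0.18 SE, edgeR adjusted p = 2.22e-05). Camp, the only cathelicidin of the mouse, whose peptide kills bacteria and is carried on NETs, was at 2.55, 2.59 and 1.68 CPM in the resistant and at 4.82, 5.49 and 5.52 CPM in the sensitive libraries (-1.21 ± 0.19, edgeR adjusted p = 0.000759). Ltf, which encodes lactoferrin, the iron-binding protein that defines these granules, was at 0.725, 2.23 and 0.975 CPM in the resistant and at 9.36, 8.35 and 6.51 CPM in the sensitive libraries (-2.67 ± 0.32, edgeR adjusted p = 0.000124). Resistant library 2 stood apart with 49 counts of Ltf, against 23 and 25 in the other resistant libraries. Without it the log2 fold change of Ltf was -3.25.

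Lcn2 encodes lipocalin 2, which starves bacteria of iron by taking up their siderophores. It was at 4.88, 6.10 and 2.42 CPM in resistant libraries 1 to 3, and at 10.2, 11.1 and 13 CPM in sensitive libraries 1 to 3 (-1.36 ± 0.25, edgeR adjusted p = 0.00182). Ngp, Camp, Ltf and Mmp8 all lie on chromosome 9. Within a library, the count of Camp over that of Ngp was 0.188 to 0.194 in resistant and 0.104 to 0.137 in sensitive blasts, so the groups did not overlap and the resistant values were close to each other. The count of Ltf over that of Ngp ran from 0.0534 to 0.167 in resistant and from 0.123 to 0.266 in sensitive blasts, and these groups overlapped.

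**Figure D2:**
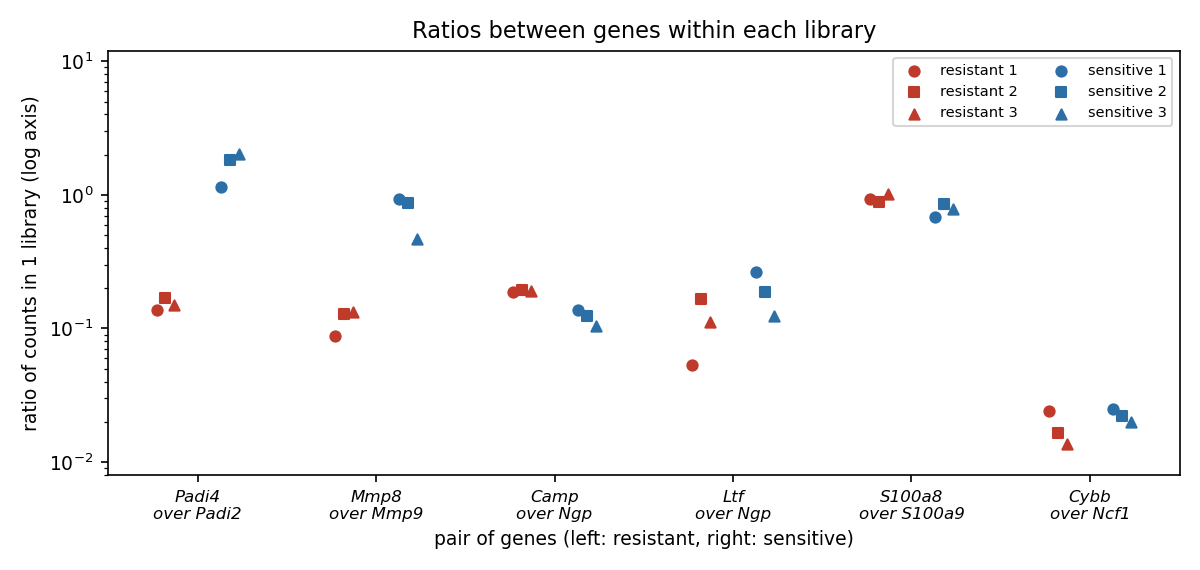
Count of one gene over that of another in the same library, on a log axis, with resistant libraries at the left and sensitive libraries at the right of each pair; symbols mark the library. Padi4 over Padi2 and Mmp8 over Mmp9 are lower in every resistant library, Camp over Ngp and S100a8 over S100a9 are higher in every resistant library, and the groups overlap for Ltf over Ngp and Cybb over Ncf1.

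Other genes of the specific and gelatinase granules moved the same way with smaller changes in most. Of 15 tested, 11 were lower, 1 was higher and 3 did not pass, with a median log2 fold change of -0.54. Of the lower genes, Slpi lost its call in 3 of 14 alternatives. Fcnb, also lower and named after its values were seen, was at 0.347, 0.501 and 0.351 CPM in resistant libraries 1 to 3. In libraries 1 and 3 this is under the filter level of 0.362 CPM, so Fcnb passed the filter only with the sensitive libraries. Cd177, a surface protein stored in specific granules, fell to 1.08 ± 0.211 CPM in resistant against 6.17 ± 1.27 CPM in sensitive blasts. Lyz2, the myeloid lysozyme, fell by 1.91 ± 0.15 on the log2 scale. Hp, encoding haptoglobin, fell by 0.54 ± 0.05 and remained abundant, at 374 ± 6.42 CPM in resistant and 545 ± 17.7 CPM in sensitive blasts. The gene that rose was Anxa1, encoding annexin A1, a regulator of leukocyte migration. It stood at 255, 190 and 183 CPM in resistant and at 62.5, 62.2 and 71.1 CPM in sensitive libraries 1 to 3 (log2 fold change 1.68 ± 0.12, edgeR adjusted p = 3.09e-06). Ptx3 had 0 counts in every library.

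Mmp8 and Mmp9 encode the neutrophil collagenase and gelatinase B, matrix proteases held in the specific and gelatinase granules. Mmp8 had 3, 4 and 4 counts in resistant libraries 1 to 3 and 80, 75 and 51 counts in sensitive libraries 1 to 3, which is 0.0945 to 0.182 CPM in resistant and 1.64 to 2.94 CPM in sensitive libraries. The summed counts, 11 in resistant and 206 in sensitive libraries, gave a ratio of sensitive over resistant of 17.3 (95% interval 9.48 to 35.3, exact Clopper-Pearson, for counting error only). No test is given for Mmp8. Mmp8 passed the low-count filter through the sensitive libraries alone; the other 9 members passed it in all 6. Mmp9 was at 1.07, 1.41 and 1.17 CPM in resistant libraries 1 to 3, and at 2.96, 3.37 and 3.50 CPM in sensitive libraries 1 to 3 (-1.44 ± 0.20, edgeR adjusted p = 0.000391). Mmp8 reads were 0.0882 to 0.133 of Mmp9 reads in resistant and 0.468 to 0.930 in sensitive libraries.

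No other tested matrix metalloproteinase gene passed the edgeR test, and 1 of their inhibitors did. Of 10 tested metalloproteinase and inhibitor genes 1 was lower and 9 did not pass, with a median log2 fold change of -0.12. The lower gene was Timp2, an inhibitor of gelatinases, at 1.18 ± 0.0969 CPM in resistant and 5.36 ± 0.173 CPM in sensitive blasts (-2.18 ± 0.17, edgeR adjusted p = 6.71e-06). Mmp7, Mmp10 and Timp4 had 0 counts in every library.

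Cybb encodes the catalytic subunit of the phagocyte NADPH oxidase, which makes the superoxide of the respiratory burst, and it is X-linked. It was at 6.55, 4.92 and 3.43 CPM in resistant libraries 1 to 3, and at 10.1, 9.26 and 8.47 CPM in sensitive libraries 1 to 3. The groups did not overlap, yet this was the smallest fall of the 10 genes, at -0.89 ± 0.20 (edgeR adjusted p = 0.00537; up to 0.0266 over 14 alternatives). Of 8 tested partner genes of the oxidase 3 were lower and 5 did not pass, with a median log2 fold change of -0.08. Hvcn1, the proton channel that balances the charge moved by the oxidase, fell by 1.64 ± 0.08, to 31.5 ± 3.10 CPM in resistant against 97.8 ± 6.41 CPM in sensitive blasts. Ncf1, the organiser subunit, fell by 0.60 ± 0.06. Cybc1, which encodes a chaperone of the membrane subunits, fell by 0.19 ± 0.06, and its call was lost in 5 of 14 alternatives, each leaving out 1 library other than resistant library 2 (edgeR adjusted p up to 0.0793). Named after their values were seen, the partner genes that did not pass included Cyba (-0.08 ± 0.07), Ncf4 (0.05 ± 0.08), Rac1 (0.03 ± 0.05) and Rac2 (-0.07 ± 0.05).

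Per kilobase of its longest transcript, Cybb was lower than each of its 8 listed partner genes in both groups. Its level was 1.05 ± 0.329 CPM per kb in resistant and 1.95 ± 0.173 CPM per kb in sensitive blasts (SD, n = 3 each), while Cyba, its membrane partner, was at 394 ± 30.5 CPM per kb in resistant and 417 ± 26.6 CPM per kb in sensitive blasts. Among the 4 other catalytic oxidase and dual oxidase genes with any count, Nox4 was the only one tested (0.31 ± 0.23, edgeR adjusted p = 0.31), and Nox3 had 0 counts in every library.

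The azurophil granule genes, which are switched on before the 10 members, moved in both directions. Of 11 tested, 4 were lower, 2 were higher and 5 did not pass, with a median of -0.33. Of the higher genes, Ctsg, the cathepsin G gene, lost its call in 5 of 14 alternatives, with library totals or without resistant library 2 or 3 or sensitive library 1 or 2 (adjusted p up to 0.106). Ctsc, encoding cathepsin C, the protease that activates the neutrophil serine proteases, fell to 0.599, 1 and 0.819 CPM in resistant libraries 1 to 3, against 28.7, 21.3 and 21.2 CPM in sensitive libraries 1 to 3 (log2 fold change -4.91 ± 0.20, edgeR adjusted p = 9.75e-08). Prss57, a neutrophil serine protease, fell by 1.38 ± 0.09, and Ms4a3, a gene of granulocyte-monocyte progenitors, by 0.70 ± 0.08. Serpinb1a, an inhibitor of these proteases, rose by 0.43 ± 0.06. Elane, which encodes neutrophil elastase, also fell (-0.98 ± 0.13, edgeR adjusted p = 0.000295), and Mpo, which encodes myeloperoxidase, did not pass (-0.33 ± 0.12, edgeR adjusted p = 0.0512; lower in 4 of 14 alternatives, namely library totals, no low-count filter, without resistant library 3 and without sensitive library 3); both were named after their values were seen. Both were far more abundant than the members: per kilobase, Elane was at 259 ± 51.3 CPM in resistant and 511 ± 76.4 CPM in sensitive blasts, and Mpo at 546 ± 93.6 CPM in resistant and 688 ± 93.0 CPM in sensitive blasts. The count of Ngp over that of Elane was 0.0284 to 0.0650 in resistant and 0.0753 to 0.114 in sensitive libraries.

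Of 8 other tested NET genes, 2 were lower, 1 was higher and 5 did not pass, with a median of -0.03. Selplg, the selectin ligand through which platelets engage neutrophils, fell by 0.36 ± 0.07, and Gsdmd, the pore-forming gasdermin, by 0.37 ± 0.08; the higher gene was Tlr4. The changes in these were small beside that of Padi4.

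**Figure D3:**
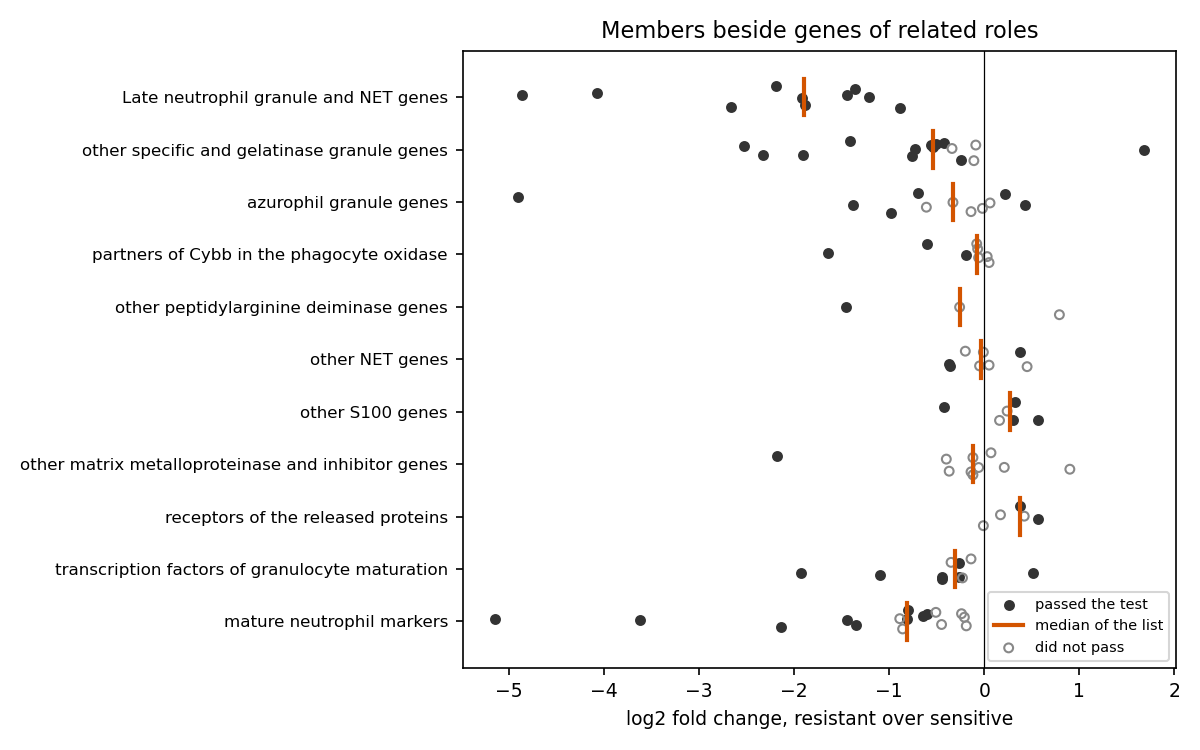
Log2 fold change, resistant over sensitive, of every tested gene of each list; filled points passed the edgeR test, open points did not, and bars mark the median of the list. The 10 members lie between -4.87 and -0.89, whereas the S100 list with S100pbp, the other metalloproteinases and the oxidase partners have medians of 0.27, -0.12 and -0.08.

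Per kilobase of longest transcript, the members kept much of their order between the groups while Padi4 changed place. In resistant blasts the order was S100a9 (18.2 ± 7.09 CPM per kb), S100a8 (17.6 ± 6.37), Ngp (9.75 ± 2.22), Lcn2 (3.25 ± 1.36), Camp (3.0 ± 0.683), Cybb (1.05 ± 0.329), Padi4 (0.906 ± 0.170), Ltf (0.478 ± 0.294), Mmp9 (0.383 ± 0.055) and Mmp8 (0.0595 ± 0.0185). The ranges of neighbours in this order did not overlap between Ngp and Lcn2, between Camp and Cybb, and between Mmp9 and Mmp8, and overlapped for the other pairs. In sensitive blasts S100a9 (83.4 ± 2.34 CPM per kb) led S100a8 (67.3 ± 8.29), Ngp (36.1 ± 7.24) and Padi4 (26.0 ± 3.04), followed by Lcn2 (8.31 ± 1.04), Camp (6.96 ± 0.523), Ltf (2.94 ± 0.526), Cybb (1.95 ± 0.173), Mmp9 (1.03 ± 0.0886) and Mmp8 (1.01 ± 0.291). There the ranges of Ngp and Padi4 met at 28.8 CPM per kb, and those of Mmp9 and Mmp8 overlapped. Padi4 thus ranked 7 in resistant and 4 in sensitive blasts.

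The members varied more among resistant than among sensitive libraries. The coefficient of variation was higher in the resistant group for 10 of 10 genes, and for 64.6% of the 13408 tested genes in which it could be computed in both groups. Counts of the members were lower in the resistant group, which widens counting error. The part of counting error in this difference was not tested. The coefficient of variation passed 30% for 6 genes in resistant blasts, up to 61.6% for Ltf, and for 0 genes in sensitive blasts. Resistant library 3 was the lowest of its group for S100a8, S100a9, Camp, Ngp, Lcn2 and Cybb, and resistant library 1 for Padi4, Ltf, Mmp8 and Mmp9. Resistant library 2 was the lowest for 0 genes and the highest for 6. Sensitive library 1 was the lowest of its group for 7 of the 10. The globin sum was likewise highest in resistant library 2 and lowest in sensitive library 1. In the resistant group, however, it was lowest in library 1, at 0.126 CPM, not in library 3, at 0.507 CPM. There each globin gene had at most 10 counts in any library. In the sensitive group the globin sum was highest in library 2, at 73.2 CPM, whereas 6 members were highest in library 3.

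Transcription factors of granulocyte maturation were lower in part. Of 10 tested, 6 were lower, 1 was higher and 3 did not pass, with a median log2 fold change of -0.31. Cebpa, the C/EBP factor required to enter the granulocyte lineage, fell to 22.1, 29.1 and 24.6 CPM in resistant libraries 1 to 3, against 97.2, 101 and 89.1 CPM in sensitive libraries 1 to 3 (-1.93 ± 0.10, edgeR adjusted p = 3.15e-07). Irf8, a factor of the monocyte branch, fell by 1.10 ± 0.11, and Cebpd by 0.45 ± 0.09. Cux1, a repressor of late granule genes, rose by 0.51 ± 0.05. Cebpe, the factor without which specific granules do not form, did not pass, at 110 CPM on average in resistant and 130 CPM in sensitive blasts (-0.23 ± 0.12, edgeR adjusted p = 0.161), nor did Spi1, which encodes PU.1 (-0.14 ± 0.07, edgeR adjusted p = 0.124); both were named after their values were seen. Of the 6 lower genes, Gfi1 lost its call in 5 of 14 alternatives and Runx1 in 2, among them the fits without sensitive library 2 and without sensitive library 3 (adjusted p up to 0.168 and 0.0603). Cebpe passed as lower in 2 alternatives, without the low-count filter and without resistant library 2 (adjusted p down to 0.012), and Spi1 in 1, the replicate block (adjusted p = 0.0455).

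Markers of mature neutrophils fell in the same libraries as the members. Of 16 tested, 9 were lower, 0 were higher and 7 did not pass, with a median of -0.81. Of all tested genes, 20.8% passed as lower and 18.5% as higher. The 22 listed genes summed to 171 to 193 CPM in resistant and 576 to 639 CPM in sensitive libraries. Trem3, a receptor of the TREM family, fell by 1.35 ± 0.10. Ly6g, the surface antigen that defines mouse neutrophils, had 1, 0 and 1 counts in resistant libraries 1 to 3 and 25, 34 and 30 counts in sensitive libraries 1 to 3. It is among the 9 lower genes, but entered the test through the sensitive libraries alone and so had to differ. The ratio of its summed counts, sensitive over resistant, was 41.2 (95% interval 11.1 to 345, exact Clopper-Pearson, for counting error only). Cxcr1 had 0 counts in every library, and Cxcr2, the chemokine receptor of mature neutrophils, did not pass (-0.19 ± 0.14, edgeR adjusted p = 0.305); Ly6g and Cxcr2 were named after their values were seen. The part of mature neutrophils in the fall of the 10 genes was not tested.

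**Figure D4:**
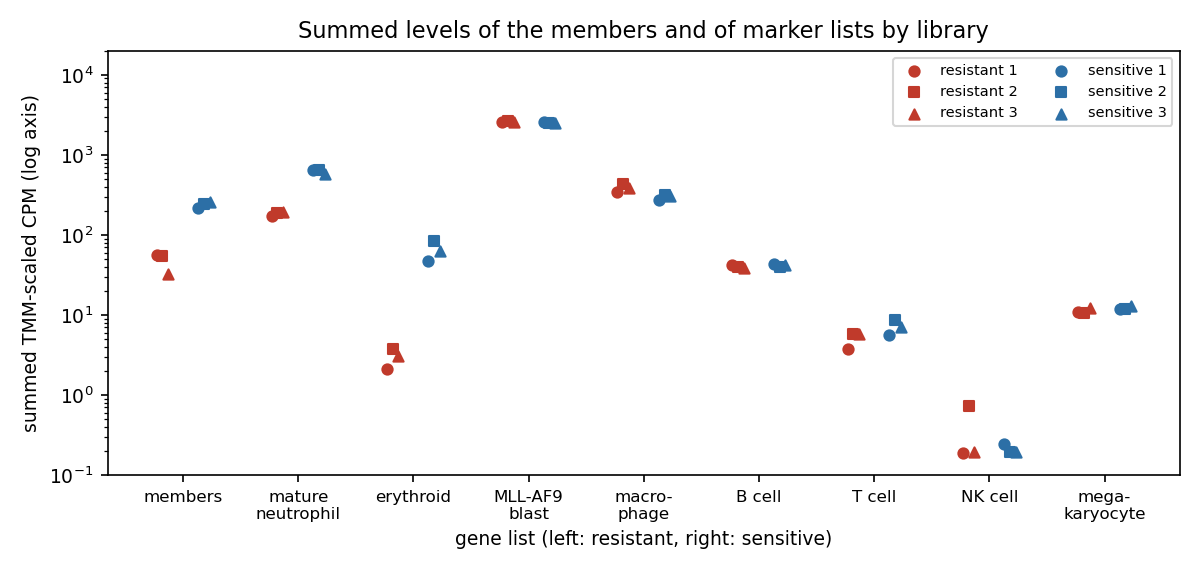
Summed TMM-scaled CPM of the 10 members and of the marker lists in each library, on a log axis, with resistant libraries at the left and sensitive libraries at the right of each list; symbols mark the library. The members, at 32.2 to 55.9 CPM in resistant and 215 to 258 CPM in sensitive libraries, separate as the mature neutrophil and erythroid lists do. The blast markers differ little and the other way, at 2580 to 2660 CPM in resistant and 2480 to 2550 CPM in sensitive libraries.

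Erythroid markers separated the groups most widely, with a sum of 2.08 to 3.73 CPM in resistant and 47.8 to 83.2 CPM in sensitive libraries. Of 8 tested, 6 were lower and 2 did not pass. Of the lower genes, Hba-a1, Hbb-bs, Hbb-bt, Alas2 and Slc4a1 had at most 8 counts in any resistant library. They entered the test through the sensitive libraries alone, as Mmp8 did, and so had to differ. Hbb-bs had 2, 7 and 2 counts in resistant libraries 1 to 3 and 437, 599 and 644 counts in sensitive libraries 1 to 3. Hba-a2 had 0, 10 and 10 counts in resistant libraries 1 to 3, and library 1 was under the filter. It thus passed the filter only with the sensitive libraries, and fell by 6.15 ± 0.43 on the log2 scale. Hbb-bs and Hba-a2 are globin genes whose reads may be shared with near-identical copies. Among 9 blast markers 4 were higher and 2 lower, led by Hoxa7 (0.62 ± 0.08) and Flt3 (-0.86 ± 0.13). Macrophage markers summed to 346 to 436 CPM in resistant and 276 to 312 CPM in sensitive libraries, nearly all from Adgre1 and Vcam1, with Vcam1 higher (0.57 ± 0.13) and the other 7 not passing.

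B cell markers summed to 38.9 to 41.7 CPM in resistant and 39.6 to 43.2 CPM in sensitive libraries, nearly all from Cd79b. Among them, Cd22 was the 1 of 4 tested genes that was lower (-1.25 ± 0.43). It had 16, 5 and 5 counts in resistant libraries 1 to 3, under the filter in libraries 2 and 3. The gene thus passed the filter only with the sensitive libraries. Cd22 lost its call in 5 of 13 alternatives, with DESeq2 or without resistant library 2 or 3 or sensitive library 1 or 2 (adjusted p up to 0.147), and its log2 fold change ran from -1.85 to -0.99. Ms4a1 and Pax5 had 0 counts in each resistant library and at most 5 counts in any sensitive library. T cell markers summed to 3.75 to 5.73 CPM in resistant and 5.68 to 8.59 CPM in sensitive libraries, with Cd8a the 1 of 3 tested that was lower (-0.66 ± 0.23). Cd8a lost its call in 6 of 14 alternatives, with DESeq2 or without resistant library 1 or 2 or any 1 of the sensitive libraries (adjusted p up to 0.139). Megakaryocyte markers summed to 10.5 to 12.2 CPM in resistant and 11.8 to 12.9 CPM in sensitive libraries, with Gp1ba higher (1.23 ± 0.25) and Itga2b lower (-0.70 ± 0.15). Stromal and endothelial markers summed to 32.8 to 38.2 CPM in resistant and 42.2 to 53.2 CPM in sensitive libraries, nearly all from Pdgfrb. This gene was lower (-0.45 ± 0.10). Adipoq had 0 counts in every library. The part of these cell types in the fall of the 10 genes was not tested.

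The 5 genes whose pattern over the 6 libraries lay nearest to that of Padi4 were found among 10897 tested genes with a symbol and a mean of at least 50 counts, by Euclidean distance of log2 CPM centred on the mean of the 6 libraries. They were Ctsc (distance 0.60), Gcnt4, a glycosyltransferase gene (0.62), the homeobox gene Six4 (0.63), the adaptor gene Grb14 (0.88) and the tubulin gene Tuba8 (0.89). Six4 was at 0.459 ± 0.0461 CPM in resistant and 20.3 ± 1.43 CPM in sensitive blasts. The log2 fold changes of the 5 genes ran from -5.47 for Six4 to -4.25 for Tuba8. In resistant blasts Gcnt4 was at 0.121 ± 0.0596 CPM and Grb14 at 0.189 ± 0.0735 CPM, under the filter level of 0.362 CPM. Both entered the test through the sensitive libraries alone, as Mmp8 did, and so had to differ. The distance counts the size of the fall, so genes with a fall of like size come first. Mmp8 was under the minimum mean count and was not compared.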

How the data were processed

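Whole-number counts per Ensembl gene were deposited by the authors, 1 column per library with no normalisation apparent. The submitters' processing notes name TopHat2, RSEM and the build mm9. Not given in the sources used here: tool versions, the annotation and the strand setting. Whether the counts are rounded RSEM estimates is not stated either. Of the IDs, 31636 of 35932 matched a GENCODE M21 symbol; M21 gave names, chromosomes and transcript lengths only. Counts were filtered with filterByExpr (minimum 10 counts, or 0.362 CPM), scaled with TMM and tested in edgeR 4.0.16 (R 4.3.3, glmQLFit and glmQLFTest, group alone) over 13414 genes, with Benjamini-Hochberg adjustment at 0.05. Library pairs within a group differed by a chi-square of 3.91 to 13.6 per degree of freedom, so no library repeats another.

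The members and lists were chosen with earlier results of these data known; lists are described by counts and medians. Up to 4 called genes with the smallest p were named per list of related genes and up to 2 per marker list; others are marked where named. Alternatives were RLE, upper quartile and unscaled totals, DESeq2 1.42.0, limma-voom 3.58.1, other filters, a replicate block, each library left out and summed exon length. All 6 sample columns were used. A few genes of the lists are counted in them but not reported by name here.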

Additional observations from a re-analysis of the deposited data

How the results depend on the processing

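In all 14 alternatives to the edgeR fit the 9 members over the low-count filter in every library passed as lower and 0 as higher. Mmp8 is left out of this count too, since it entered the test through the sensitive libraries alone. Leaving out a library moved a member's fold change by at most 1.49 times (Ltf). Leaving out each library in turn gave 2015 to 2711 lower and 1641 to 2521 higher genes over the whole table, the lowest count of higher genes being without sensitive library 2. Genes of the related lists numbered 29 lower and 9 higher, and 25 to 30 lower and 7 to 8 higher with a library left out. With the replicate number as a block, 2824 genes were lower and 2497 higher, and the same 9 members passed. Same-numbered libraries did not deviate together (correlations 0.037, -0.0056 and -0.086), and libraries of different number gave -0.063 to 0.069. No pairing by number was seen, but this check cannot exclude that same-numbered libraries shared a batch or handling. Scaling by library totals gave 3136 lower and 2087 higher genes and moved the median log2 fold change to -0.039. With summed exon length, 14 of 20 ranks of members by level were unchanged. Depth limits Mmp8 most, with 11 counts over the resistant libraries.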
